A study of Mus musculus with 36 samples.

Results

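Sterol and fatty acid synthesis genes were read in the host stroma of human oral tumours grown in mice on diets of different fat. The members were 37 listed mouse genes of the cholesterol and fatty acid pathways. They were kept where the platform annotation of the deposited array values gave a probe set for that gene alone, and where a gene had several, that of highest average level was used. Of the 37 genes, 33 had such a probe set, and 32 lay above the filter on low signal, out of 17097 genes measured and 12823 tested. The tested genes were 15 of the 18 listed for cholesterol synthesis, 5 of 6 for sterol sensing and transport and 12 of 13 for fatty acid synthesis, desaturation and elongation. Pmvk, Acat2, Srebf1 and Scd2 had no such probe set, and Hmgcs1 was measured but lay below the filter, at a mean of 4.30 log2.

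The 36 arrays held RNA of the cell fraction labelled neural, prepared from the stroma of orthotopic oral xenografts in NOD-SCIDγ (NSG) mice, which lack most lymphocytes. The tumour cells were SCC25, a widely used line from a human tongue carcinoma, or VDH15, which the labels name as an oral carcinoma line. The tumour cells, and not the host, carried either the non-targeting shRNA (PLKO) or an shRNA against the fatty acid receptor CD36 (shCD36), so mouse Cd36 on these arrays checks no label. In the experiment named VDH15-1 in the plots, PLKO tumours were studied on the control diet, the palmitic acid-rich diet and the oleic acid-rich diet, with 4 arrays for each diet. In the SCC25 experiment and in the second VDH15 experiment, named VDH15-2, PLKO and shCD36 tumours were studied on the control and the palmitic acid-rich diets, with 3 arrays for each group. Each of these 11 groups is labelled as 1 biological replicate, and its arrays as technical replicates. The age of the mice, and whether the arrays of a group shared a tumour, are not given in the sources used here. The unit of the main fit was therefore the group average. There were n = 3 experiments for palmitate over control in PLKO tumours, n = 2 for each comparison with shCD36 and n = 1 for oleate.

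Cholesterol is built from acetyl-CoA through mevalonate and the isoprenoid farnesyl diphosphate to squalene, which is closed into lanosterol and trimmed to cholesterol. Fatty acid synthesis starts from the same acetyl-CoA, yields mainly palmitate, and is followed by elongases and desaturases, which lengthen the chain and insert double bonds such as that of oleate. Both branches are transcribed under the sterol regulatory element-binding proteins: the escort protein Scap carries them out of the endoplasmic reticulum when sterol is low, and Insig proteins hold the complex back when sterol is plentiful. Nerve sheath cells need much cholesterol and fatty acid for myelin, and keratinocytes need both for the skin barrier.

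The deposited values were log2 intensities, with array medians between 5.98 and 6.04, so a difference of 1 log2 is a doubling of signal. On the first principal component, which held 44.5% of the variance of the tested genes, 3 arrays of PLKO tumours on palmitate stood apart, with scores of 53.2 and 50.1 (VDH15-1, arrays 1 and 2) and 42.5 (VDH15-2, array 1). The other palmitate arrays of PLKO tumours scored between 13.8 and 23.2, and the arrays of all other groups had negative scores. Values without the 3 arrays are given beside the results they move most. Leaving the 3 out takes away the palmitate arrays furthest along this component and no control array. Smaller palmitate differences without them are therefore partly built in for genes that follow it. The fraction held markers of several cell types. Of 6 Schwann cell and glial markers measured, Sox10, Ngfr and Erbb3 lay above the filter, and S100b, Gfap and Foxd3 lay below it. All 9 keratinocyte markers measured lay above it, with mean levels of 10.3 to 12.6 log2, as did all 8 endothelial markers and 6 of 8 fibroblast markers. Because these are bulk samples, fewer cells of a type and less RNA of a gene per cell cannot be told apart. Whether RNA of the human tumour cells added to the signal of these mouse probe sets was not tested.

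The sequences upstream of the start are shown for the called genes that have an entry in the RefSeq promoter table (build GRCm38.p6), because the promoters of both branches are known to share NF-Y and Sp1 boxes beside the sterol regulatory element. Windows of 250 bases before to 50 bases after a start were found for 30 of the 37 genes, not for Fdft1. Capitals mark the NF-Y box CCAAT, read on either strand. Acss2 lies at chr2:155517793-155518042 on the plus strand, Dhcr7, at the last of its 3 annotated starts, at chr7:143829964-143830213 on the plus strand, and Fads3 at chr19:10041298-10041547 on the plus strand.
Acss2: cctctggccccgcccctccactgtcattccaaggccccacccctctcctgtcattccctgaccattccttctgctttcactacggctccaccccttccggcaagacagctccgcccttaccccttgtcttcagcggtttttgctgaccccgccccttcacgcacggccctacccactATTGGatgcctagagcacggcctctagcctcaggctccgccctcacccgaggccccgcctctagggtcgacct
Dhcr7: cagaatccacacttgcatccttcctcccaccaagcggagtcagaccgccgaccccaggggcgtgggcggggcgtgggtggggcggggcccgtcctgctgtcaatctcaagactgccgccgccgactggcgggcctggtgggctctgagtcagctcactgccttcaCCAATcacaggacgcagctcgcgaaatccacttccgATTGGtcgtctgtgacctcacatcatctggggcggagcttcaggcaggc
Fads3: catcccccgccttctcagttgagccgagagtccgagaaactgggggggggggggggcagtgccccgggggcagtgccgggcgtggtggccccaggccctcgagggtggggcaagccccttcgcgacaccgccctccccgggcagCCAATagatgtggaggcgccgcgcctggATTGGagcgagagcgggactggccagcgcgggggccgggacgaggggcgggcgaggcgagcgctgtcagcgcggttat
The box occurred 1 time before the start of Acss2 and 2 times before that of Fads3. In Dhcr7 it occurred 2 times before the start shown and was absent from the windows of the other annotated starts. It was found in the windows of 25 of the 30 genes (83.3%), against 42.2% of the 10269 tested genes with a window and 41.1% of all 27025 genes in the table. The Sp1 box GGGCGG, read on both strands and able to share its end letters with an NF-Y box, was also in 25 of the 30 (83.3%), against 64.2% of tested genes and 38.2% of all genes. The sterol regulatory element in the form TCACNCCAC was found in 1 of the 30, Hmgcs1, where it began 137 bases before the start, against 1.49% of tested genes and 1.44% of all genes. These are letter matches in a window and do not show binding.

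Palmitate over control in PLKO tumours asked what the palmitic acid-rich diet of the host changed in this stroma. Fdft1, the squalene synthase that commits isoprenoids to sterols, Dhcr7, the reductase of a last step to cholesterol, and Acss2, which makes acetyl-CoA from acetate, fell, and the desaturase Fads3 rose. These 4 of the 32 tested genes (12.5%) passed an adjusted p of 0.05, where 887 of all 12823 genes did (6.92%). By direction, 3 of the 32 were lower, against 3.27% of all genes, and 1 was higher, against 3.65%. The median over the 15 cholesterol genes was -0.20 log2, with 13 lower and 2 higher, and that over the 12 fatty acid genes was -0.077, with 7 lower and 5 higher, beside -0.033 over all genes. Within the fatty acid genes, all 5 synthesis genes had a negative difference and all 4 desaturases a positive one, with medians of -0.33 and 0.37 log2. Of the synthesis genes Acly was at -0.0056 log2, with mixed signs between experiments. Without the 3 arrays that stood apart Scd1 was at 0.012 and Fads2 at -0.024 log2, with Fads1 at 0.27 and Fads3 at 0.61.

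**Figure D1:**
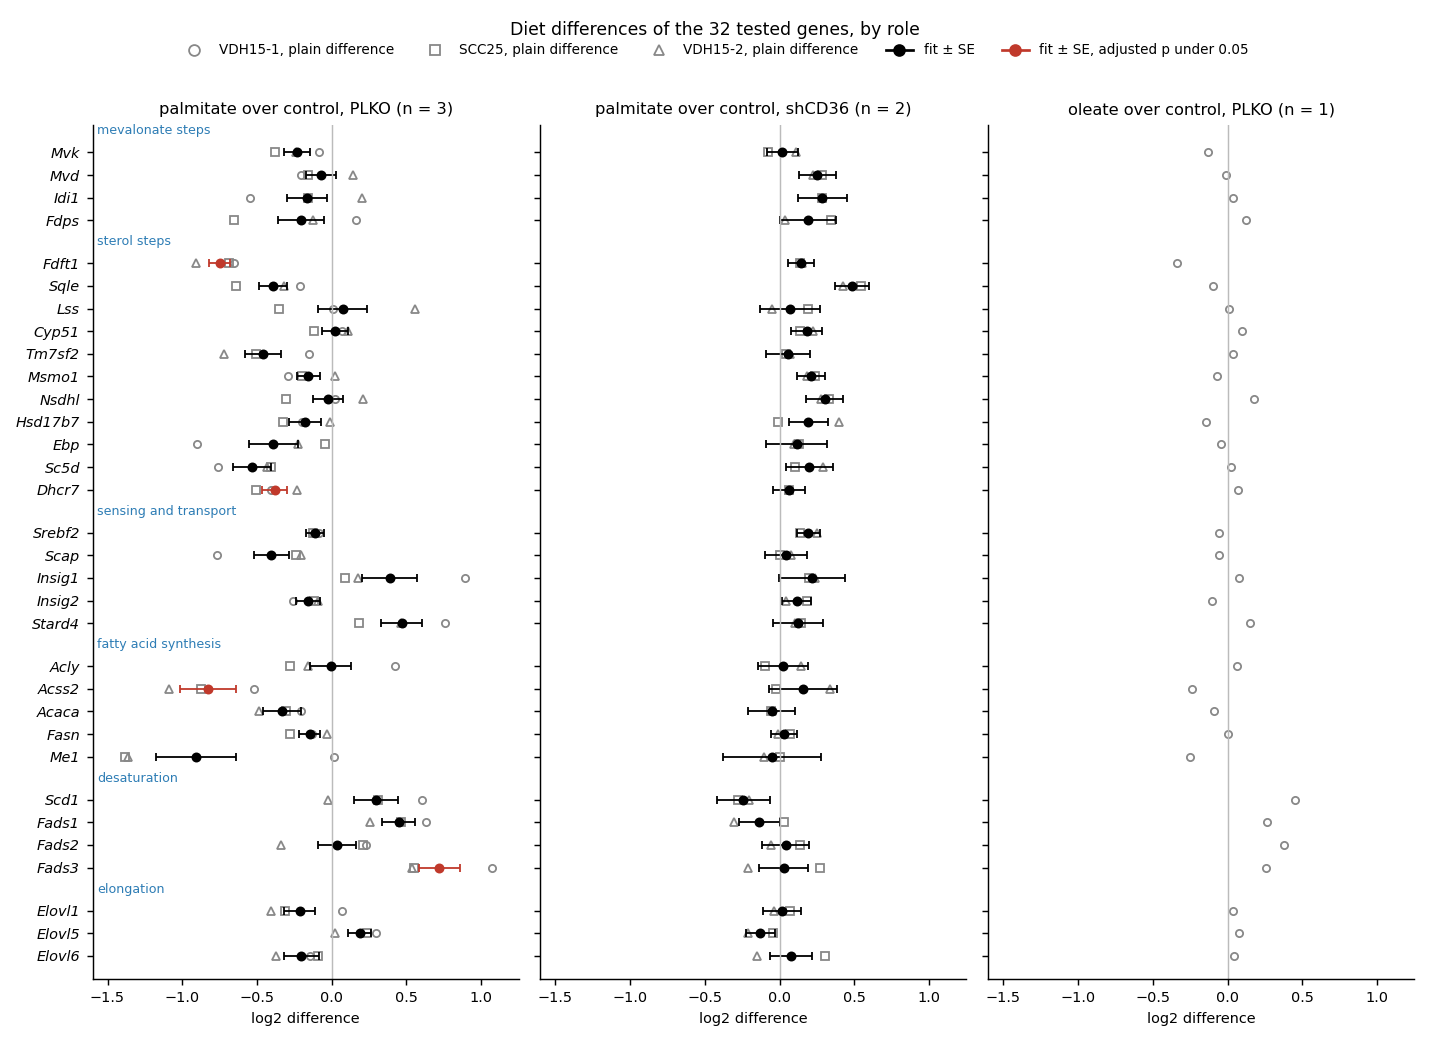
Log2 differences of the 32 tested genes by role, for palmitate over control in PLKO tumours (left), the same in shCD36 tumours (middle) and oleate over control in PLKO tumours (right). Open symbols are plain differences of group averages within an experiment, filled points the limma estimate ± SE with called genes in red. Fdft1, Dhcr7 and Acss2 lie left of 0 and Fads3 right of 0 in all 3 experiments of the left panel.

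The clearest separation was that of Fdft1. On the control diet its arrays read 7.79, 7.90, 7.92 and 8.02 log2 in the first VDH15 experiment, 7.86, 7.96 and 7.97 in SCC25 and 7.85, 7.91 and 8.35 in the second VDH15 experiment. On palmitate they read 7.23, 7.24, 7.26 and 7.30, then 7.22, 7.22 and 7.28, then 7.06, 7.11 and 7.21 in the same order. In each experiment every palmitate array was below every control array of PLKO tumours. Arrays were apart on the low side for 23.1%, 19.7% and 17.1% of all genes in VDH15-1, SCC25 and VDH15-2. Fdft1 fell by 0.75 ± 0.07 log2 (SE, n = 3, adjusted p = 0.00955 in limma), which is 1.68-fold lower. Over the 3 experiments it averaged 7.96 ± 0.07 log2 on control and 7.21 ± 0.07 on palmitate (SD, n = 3). The deposited values had been adjusted for batch, and each experiment was its own labelled hybridization batch. The SD therefore does not measure how unadjusted levels varied between experiments. Fdft1 is measured by a single probe set. Without the 3 arrays that stood apart the difference was -0.77 log2 (adjusted p = 0.0151).

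For Dhcr7, the control arrays read 9.50, 9.65, 9.75 and 9.76 log2 in the first VDH15 experiment, 9.72, 9.72 and 9.88 in SCC25 and 9.45, 9.54 and 9.59 in the second VDH15 experiment. The palmitate arrays read 9.02, 9.29, 9.35 and 9.39, 9.17, 9.22 and 9.40 and 9.24, 9.28 and 9.35. In each experiment all palmitate arrays lay below all control arrays of that experiment. Dhcr7 fell by 0.38 ± 0.09 log2 (SE, n = 3, adjusted p = 0.0493), close to the threshold. Without the 3 arrays that stood apart it was -0.35 log2 and not called (adjusted p = 0.0641).

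The other sterol genes given in full were Sqle and Sc5d. Sqle, the squalene epoxidase that follows Fdft1, averaged 7.62, 7.81 and 7.70 log2 on control and 7.41, 7.17 and 7.38 log2 on palmitate in the 3 experiments. Its arrays did not overlap in SCC25 or in the second VDH15 experiment and did in the first. The difference of -0.39 ± 0.09 log2 missed the threshold (adjusted p = 0.0572), and without the 3 arrays that stood apart it was -0.44 log2 and passed (adjusted p = 0.0424). Sc5d, a desaturase of the sterol ring, averaged 6.90, 6.83 and 6.64 log2 on control and 6.14, 6.42 and 6.20 log2 on palmitate. It was lower in 3 of 3 experiments, by -0.53 ± 0.13 log2, which was not called (adjusted p = 0.0572). Its 2 other probe sets gave -0.17 and -0.29 log2.

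The remaining 7 sterol genes were not called. They ranged from -0.46 log2 for Tm7sf2, a sterol reductase (adjusted p = 0.0669), to 0.073 for Lss, the lanosterol synthase. Ebp, a sterol isomerase, differed by -0.39 ± 0.16 log2 over the 3 experiments, and the experiments spread widely, at -0.90 (-0.58 without the arrays that stood apart), -0.046 and -0.23. Lss, whose mean of 5.26 log2 lay just above the filter, took opposite directions. It was at -0.35 log2 in SCC25 and 0.56 in the second VDH15 experiment. For Nsdhl, a sterol dehydrogenase, the average of -0.024 log2 likewise joined 0.021, -0.30 and 0.21, and for Cyp51, the lanosterol demethylase, that of 0.02 joined 0.07, -0.12 and 0.11.

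Before squalene, none of the 4 tested mevalonate genes was called. Mvk, the mevalonate kinase, averaged 8.23, 8.34 and 8.34 log2 on control and 8.15, 7.96 and 8.11 log2 on palmitate, a difference of -0.23 ± 0.08 log2 (adjusted p = 0.142). Idi1, the isopentenyl diphosphate isomerase, averaged 8.06, 7.84 and 7.71 log2 on control and 7.51, 7.68 and 7.92 log2 on palmitate, lower in the first VDH15 experiment and SCC25 and higher in the second VDH15 experiment. Mvd, the decarboxylase that makes isopentenyl diphosphate, averaged 7.88, 7.80 and 7.77 log2 on control and 7.68, 7.64 and 7.91 log2 on palmitate. Mixed signs were seen there too. Fdps, which makes farnesyl diphosphate, averaged 7.53, 7.91 and 7.71 log2 on control and 7.70, 7.26 and 7.59 log2 on palmitate. Its arrays were apart in SCC25, by -0.65 log2, and overlapped in both VDH15 experiments.

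The 5 genes of sterol sensing and transport did not move one way. Scap, the escort protein, averaged 8.60, 8.34 and 8.31 log2 on control and 7.83, 8.10 and 8.11 log2 on palmitate (-0.40 ± 0.11 log2, adjusted p = 0.0816). Stard4, which carries cholesterol between membranes, averaged 7.13, 7.32 and 7.38 log2 on control and 7.89, 7.51 and 7.84 log2 on palmitate (0.47 ± 0.14 log2, adjusted p = 0.0872). Neither was called, and each had the same sign in 3 of 3 experiments. Both rested largely on the arrays that stood apart: without them Scap was at -0.24 log2 and Stard4 at 0.21, and in the first VDH15 experiment Scap went from -0.77 to -0.22 and Stard4 from 0.76 to 0.24. The other probe sets of Stard4 gave 0.59 and 0.045 log2 over the experiments, and the latter was at -0.15 in SCC25. Srebf2, the transcription factor of the sterol branch, averaged 8.45, 8.44 and 8.49 log2 on control and 8.36, 8.32 and 8.37 log2 on palmitate, slightly lower in each experiment. Insig2 averaged 8.91, 8.90 and 8.78 log2 on control and 8.66, 8.77 and 8.69 log2 on palmitate. The other Insig gene, Insig1, which is itself a sterol-regulated gene, had a positive difference of 0.39 ± 0.18 log2 that was not called and rested mostly on the first VDH15 experiment (0.89 log2 there, 0.47 without the arrays that stood apart, and 0.087 and 0.18 in the other experiments).

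Among fatty acid synthesis genes, Acss2 was the called member. Its control arrays read 5.46, 5.89, 5.91 and 6.23 log2 in the first VDH15 experiment, 6.16, 6.20 and 6.26 in SCC25 and 5.47, 5.92 and 6.61 in the second VDH15 experiment. Its palmitate arrays read 5.0, 5.31, 5.52 and 5.58, 5.13, 5.40 and 5.46 and 4.69, 4.98 and 5.06. The groups were apart in SCC25 and in the second VDH15 experiment and overlapped in the first. Acss2 fell by 0.83 ± 0.18 log2 (SE, n = 3, adjusted p = 0.0489), or 1.78-fold, and without the 3 arrays that stood apart it was at -0.73 log2 and not called (adjusted p = 0.0695). A second, dimmer probe set of Acss2, at a mean of 4.96 log2, gave 0.086, -0.72 and -0.71 log2 in the 3 experiments.

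Me1, the malic enzyme that supplies NADPH for synthesis, differed between experiments. In the first VDH15 experiment it averaged 7.62 log2 on control and 7.63 on palmitate. In SCC25 its arrays read 8.22, 8.43 and 8.54 on control and 6.99, 7.01 and 7.03 on palmitate, and in the second VDH15 experiment 8.06, 8.20 and 8.43 and 5.45, 7.57 and 7.59. The lowest of these, 5.45 log2, is array 1, which stood apart on the first principal component. The difference of -0.91 ± 0.27 log2 was not called (adjusted p = 0.0883). Without the 3 arrays that stood apart it was -0.66 log2, and the second VDH15 experiment went from -1.36 to -0.65. Without the first VDH15 experiment the difference was -1.37 log2 and passed (adjusted p = 0.0173). The second probe set of Me1 gave -0.093, -1.47 and -1.30 log2.

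Acaca, the carboxylase that makes malonyl-CoA, averaged 9.33, 9.50 and 9.35 log2 on control and 9.12, 9.19 and 8.86 log2 on palmitate. It was lower in 3 of 3 experiments and not called (-0.33 ± 0.13 log2, adjusted p = 0.160). A second, dimmer probe set of Acaca, at a mean of 6.42 log2, gave -0.39, -0.68 and -0.75 log2. With the mean of all probe sets Acaca was among the 4 members called, and Acss2 was not. Fasn, the fatty acid synthase, averaged 8.90, 8.99 and 8.84 log2 on control and 8.77, 8.71 and 8.81 log2 on palmitate (-0.15 ± 0.07 log2, adjusted p = 0.236). For Acly, which splits citrate into acetyl-CoA, the average difference of -0.0056 log2 joined opposite values, 0.42 in the first VDH15 experiment and -0.28 in SCC25.

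**Figure D2:**
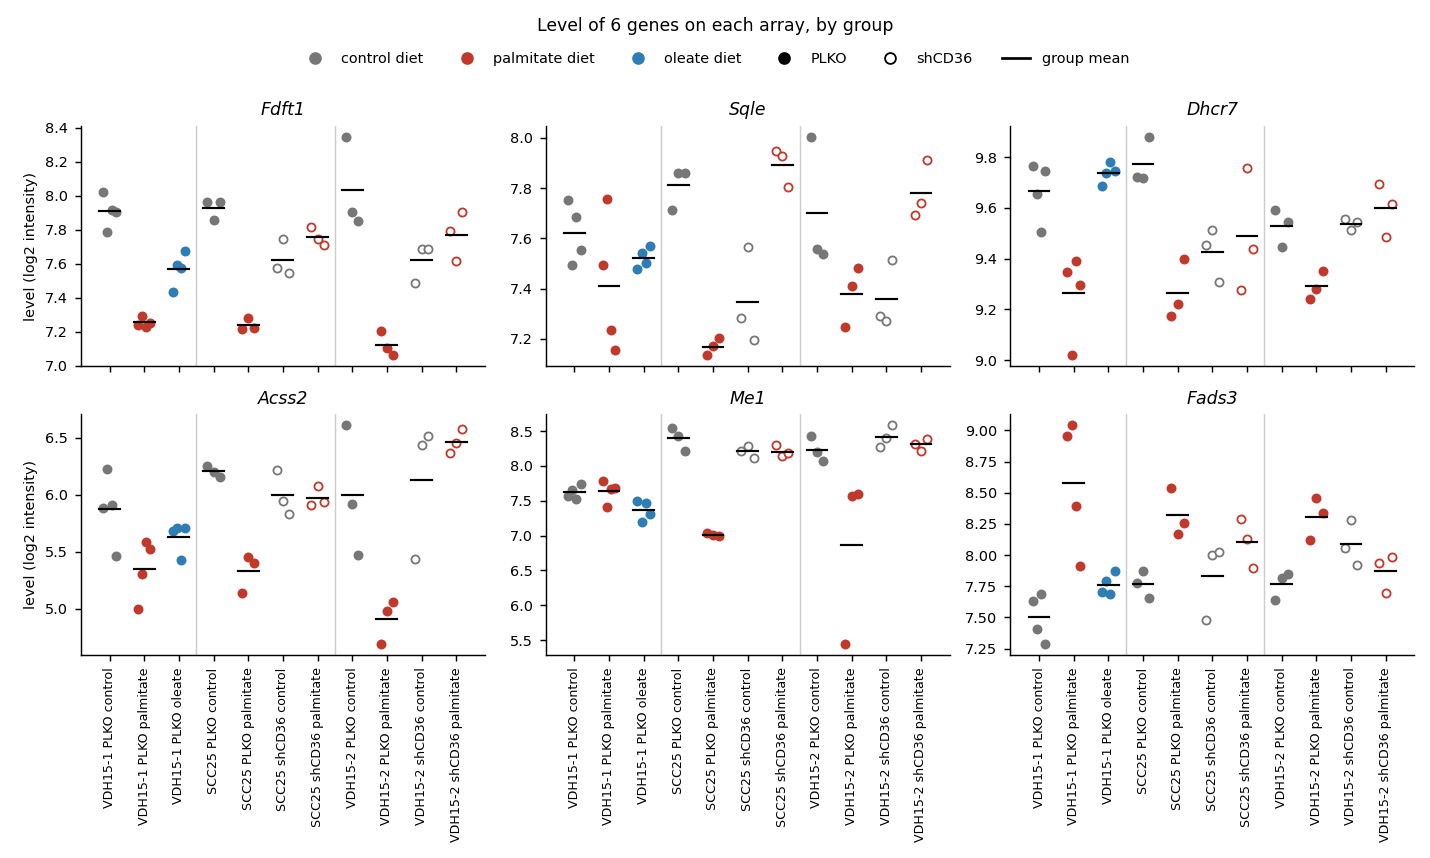
Level in log2 intensity of Fdft1, Sqle, Dhcr7, Acss2, Me1 and Fads3 on each array (points) and the group mean (bar), for the 11 groups split by experiment, with diet as colour and open points for shCD36. In Fdft1 all palmitate arrays of PLKO tumours lie at 7.30 log2 or less and all other arrays at 7.43 or more.

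Of the 4 desaturases, Fads3 was the called member. Fads3, a member of the fatty acid desaturase family, read 7.29, 7.41, 7.63 and 7.69 log2 on the control arrays of the first VDH15 experiment, 7.66, 7.78 and 7.87 in SCC25 and 7.64, 7.82 and 7.85 in the second VDH15 experiment. On palmitate it read 7.91, 8.39, 8.96 and 9.04, 8.17, 8.26 and 8.54 and 8.12, 8.34 and 8.46. In each experiment all palmitate arrays lay above all control arrays of PLKO tumours. Arrays were apart on the high side for 17.2%, 15.4% and 14.9% of all genes in VDH15-1, SCC25 and VDH15-2. Fads3 rose by 0.72 ± 0.13 log2 (SE, n = 3, adjusted p = 0.0336), which is 1.65-fold, and without the 3 arrays that stood apart by 0.61 log2 (adjusted p = 0.0306). Its 2 other probe sets gave 0.94 and 0.22 log2.

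Fads1, a desaturase of polyunsaturated chains, averaged 9.15, 9.17 and 9.40 log2 on control and 9.78, 9.63 and 9.65 log2 on palmitate. It was higher in 3 of 3 experiments but not called (0.45 ± 0.11 log2, adjusted p = 0.0604). Without the 3 arrays that stood apart it was at 0.27 log2, with 0.31 in the first and 0.038 in the second VDH15 experiment. A second, dimmer probe set of Fads1, at a mean of 5.85 log2, gave 0.43, 0.076 and -0.18 log2 in the 3 experiments. Scd1, which makes oleate and palmitoleate from saturated chains, averaged 7.28, 7.53 and 7.49 log2 on control and 7.88, 7.84 and 7.47 log2 on palmitate (0.30 ± 0.15 log2, adjusted p = 0.25). That difference of Scd1 rested on the arrays that stood apart: its palmitate arrays of the first VDH15 experiment read 7.09, 7.24, 8.42 and 8.78 log2, the upper pair being those arrays, and without the 3 arrays it was at 0.012 log2, with -0.11 in the first and -0.16 in the second VDH15 experiment. A second probe set of Scd1, at a mean of 7.40 log2, gave 0.48, 0.037 and -0.29 log2 in the 3 experiments, with a mean of 0.076. Fads2 averaged 9.28, 9.34 and 9.52 log2 on control and 9.51, 9.55 and 9.18 log2 on palmitate. Scd1 and Fads2 had a negative difference in the second VDH15 experiment and positive ones in the others. The fitted difference of Fads2, 0.033 ± 0.13 log2, turned to -0.024 without the 3 arrays that stood apart.

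None of the 3 elongases among the members was called. Elovl5, which extends polyunsaturated chains, averaged 11.19, 11.23 and 11.31 log2 on control and 11.48, 11.47 and 11.33 log2 on palmitate (0.19 ± 0.08 log2, adjusted p = 0.189). Elovl6, which extends palmitate, averaged 7.40, 7.43 and 7.46 log2 on control and 7.26, 7.34 and 7.08 log2 on palmitate (-0.20 ± 0.12 log2). Elovl1, which makes very long saturated chains, averaged 10.88, 11.11 and 11.08 log2 on control and 10.96, 10.80 and 10.68 log2 on palmitate (-0.21 ± 0.10 log2).

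The number of called genes depended on the fit. All arrays with duplicateCorrelation gave 13 members and 3052 genes (23.8% of all), and the fit without the experiment term gave 12 members and 3001 genes (23.4%). Both held the same 4 genes. The duplicateCorrelation fit, here and in the other comparisons, takes as units single arrays that the labels call technical replicates. Its larger counts therefore do not measure agreement between experiments. Without the first VDH15 experiment Fdft1 passed (adjusted p = 0.0221), while Dhcr7 (0.141), Acss2 (0.0826) and Fads3 (0.0843) did not. Without SCC25 or without the second VDH15 experiment no member and no gene was called in limma, with 1944 and 1857 genes and 6 and 7 members at an unadjusted p under 0.05.

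Within single experiments, the cholesterol genes were lower on palmitate most evenly in SCC25. There 15 of 15 had a negative difference, with a median of -0.35 log2, and in 9 of them all 3 palmitate arrays lay below all 3 control arrays (19.7% of all genes). In the first VDH15 experiment 11 of 15 were negative, with a median of -0.21 log2, and 5 had arrays apart on the low side (23.1% of all genes). In the second 9 of 15 were negative, with a median of -0.13 log2, and 6 had arrays apart on the low side (17.1% of all genes). On the high side, arrays were apart for none, none and 1 of the 15 in the same order of SCC25, the first and the second VDH15 experiment (15.4%, 17.2% and 14.9% of all genes). The 4 desaturases had medians of 0.62, 0.38 and 0.11 log2 in VDH15-1, SCC25 and VDH15-2, and the 5 synthesis genes -0.13, -0.31 and -0.49. Without the 3 arrays that stood apart the desaturase medians were 0.29 in VDH15-1, with 3 of 4 positive, and -0.062 in VDH15-2, with 2 of 4 positive. The synthesis medians were then -0.22 and -0.60, and the cholesterol medians -0.21 and -0.19, with 13 and 11 of 15 negative.

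In the first VDH15 experiment the diets were balanced over both labelled scan batches, with 2 arrays of each diet in each. The difference for Fdft1 was -0.72 log2 in scan batch 2 and -0.58 in scan batch 3. For Fads3 it was 0.77 and 1.37 log2, for Dhcr7 -0.31 and -0.49, and for Acss2 -0.64 and -0.40. Each sign was the same in both batches.

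**Figure D3:**
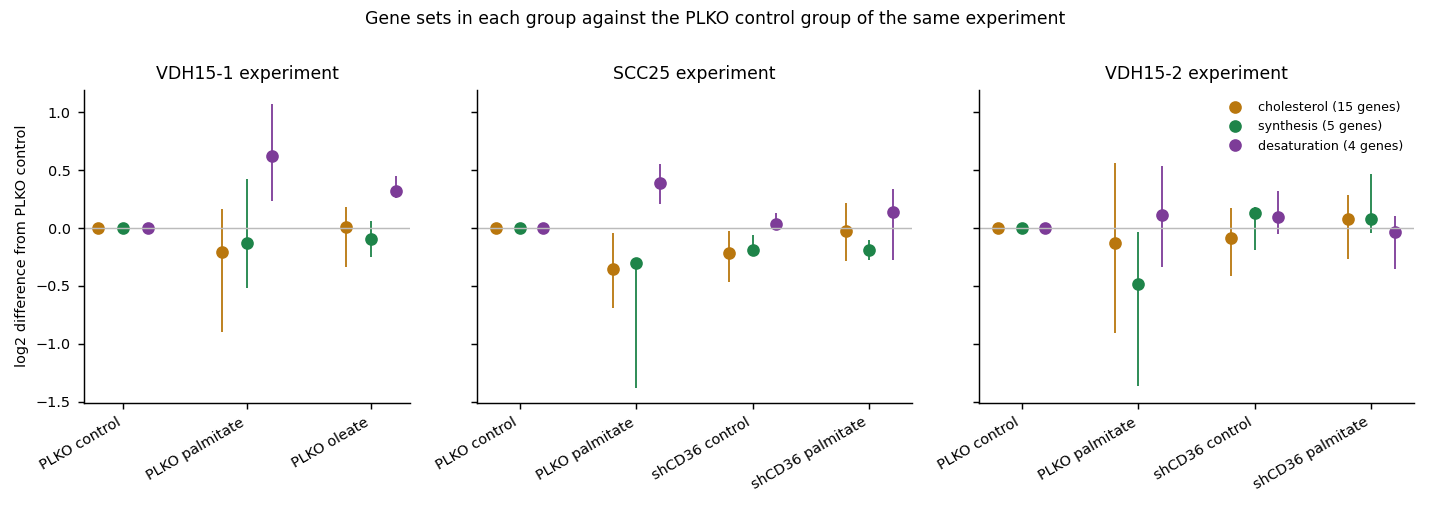
Median log2 difference (points) and range (lines) of the cholesterol, fatty acid synthesis and desaturation genes in each group, against the PLKO control group of the same experiment, which is 0 by construction. On palmitate in PLKO tumours the cholesterol medians lie at -0.21, -0.35 and -0.13 and the desaturase medians at 0.62, 0.38 and 0.11, of which the first and last are 0.29 and -0.062 without the arrays that stood apart.

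Several lists of cell type markers moved with the palmitate difference in PLKO tumours. All 8 endothelial markers were higher, 3 of them called, with medians of 1.35, 2.44 and 0.92 log2 in VDH15-1, SCC25 and VDH15-2. All 6 tested fibroblast markers were higher, 2 of them called, with medians of 0.62, 3.10 and 1.09 log2. All 7 tested macrophage markers were higher and 1 was called. Of the 9 keratinocyte markers 8 were lower, 2 of them called, with medians of -0.63, -0.11 and -0.099 log2, while Krt5 and Krt14, which mark the basal layer, differed by 0.036 and -0.051. The only sebaceous gland marker above the filter, Far2, differed by 0.096, -1.09 and -1.93 log2. Of the adipocyte markers above the filter, Fabp4 differed by 1.44 log2 and Plin4, Retn and Pparg by 0.038, 0.026 and 0.13, none called. The skeletal muscle markers above the filter lay between -0.20 and 0.0065 log2. Without the 3 arrays that stood apart the keratinocyte median in VDH15-1 was -0.18, and in VDH15-2 the fibroblast median was 0.43 and the keratinocyte median -0.062. Of the Schwann cell and glial markers above the filter, Erbb3 differed by -0.82 log2, Sox10 by 0.024 and Ngfr by -0.037, none called. Their VDH15-1 median of -0.41 log2 was 0.060 without the 3 arrays. Of the neuronal markers above the filter, Tubb3 was called, at -1.16 log2 (adjusted p = 0.0171 in limma). Uchl1, Stmn2 and Syt1 differed by 0.21, 0.23 and -0.017 and were not called. The part of these cell types in the lipid gene differences was not tested.

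**Figure D4:**
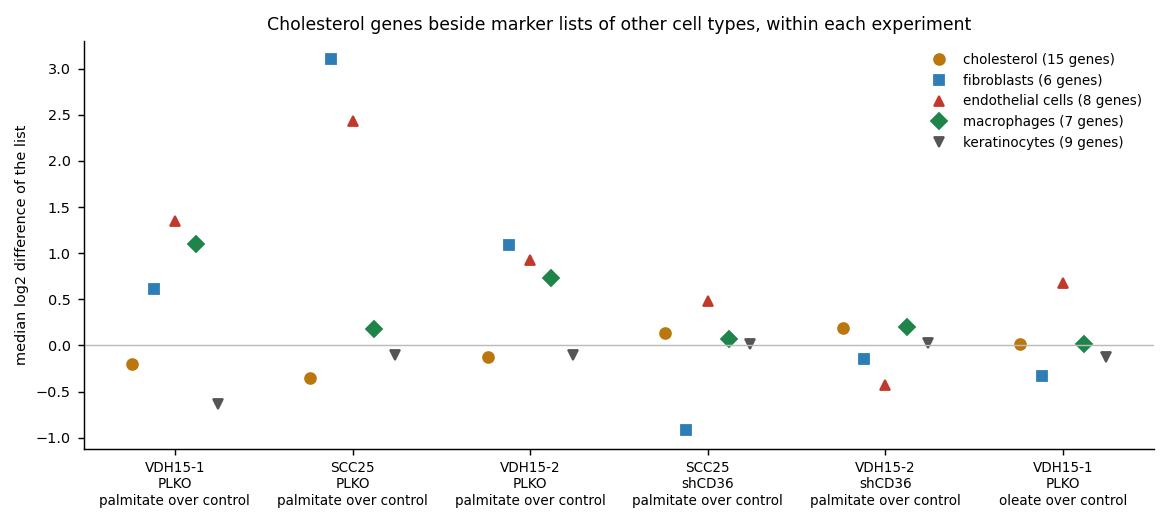
Median log2 difference of the 15 cholesterol genes beside those of the fibroblast, endothelial, macrophage and keratinocyte marker lists, for each diet comparison within an experiment. Fibroblast and endothelial medians are above 0 in the 3 palmitate comparisons of PLKO tumours, where the cholesterol medians are below 0.

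Palmitate over control in shCD36 tumours asked the same of tumours whose cells carried the shRNA against CD36. No member and no gene was called (0% of 12823) in limma, with 282 genes and 3 members at an unadjusted p under 0.05. With all arrays and duplicateCorrelation 7 genes and 0 members were called. All 15 cholesterol genes had a positive difference, with a median of 0.19 log2 and a range of 0.016 to 0.48, beside 0.0052 over all genes. The median of the 12 fatty acid genes was 0.019, and that of the 5 sensing genes 0.12.

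Sqle had the largest difference of the 15. Its shCD36 arrays read 7.20, 7.28 and 7.57 log2 on control and 7.80, 7.93 and 7.95 on palmitate in SCC25, and 7.27, 7.29 and 7.51 and 7.69, 7.74 and 7.91 in the second VDH15 experiment. The palmitate arrays lay above the control arrays in both. The difference was 0.48 ± 0.12 log2 (SE, n = 2, 95% interval 0.21 to 0.76), and it was not called (adjusted p = 1.00). Fdft1 read 7.55, 7.58 and 7.75 log2 on control and 7.71, 7.75 and 7.82 on palmitate in SCC25, and 7.49, 7.69 and 7.69 and 7.62, 7.79 and 7.90 in the second VDH15 experiment, with some overlap in both (0.14 ± 0.09 log2, adjusted p = 1.00).

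In SCC25, 13 of 15 cholesterol genes were positive, with a median of 0.14 log2, and 4 had all palmitate arrays above all control arrays (14.6% of all genes). In the second VDH15 experiment 14 of 15 were positive, with a median of 0.19 log2, and 6 were apart on the high side (8.03% of all genes). Among the genes called in PLKO tumours, Dhcr7 differed by 0.063 ± 0.11 log2, Acss2 by 0.15 ± 0.23 and Fads3 by 0.028 ± 0.16, none of them called. Acss2 averaged 6.0 and 5.97 log2 in SCC25 and 6.13 and 6.47 in the second VDH15 experiment, and Me1 8.21 and 8.21, then 8.41 and 8.31. Fads3 averaged 7.84 and 8.10 log2 in SCC25 and 8.09 and 7.87 in the second VDH15 experiment. Fibroblast markers were lower here, with medians of -0.92 log2 in SCC25 and -0.15 in the second VDH15 experiment, and endothelial markers took 0.48 and -0.43. Their part was not tested.

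The difference of the palmitate effect between shCD36 and PLKO tumours tests this contrast directly. No gene was called in limma (0%), with 2011 genes and 12 members at an unadjusted p under 0.05. With single technical arrays as units, duplicateCorrelation called 1052 genes (8.20%) and 5 members: Fdft1, Sqle, Sc5d, Dhcr7 and Elovl5. The fit without the experiment term called 699 genes (5.45%) and 4 members: Fdft1, Sc5d, Sqle and Srebf2. For Fdft1 the palmitate effect was 0.89 ± 0.11 log2 higher in shCD36 tumours (SE, 95% interval 0.63 to 1.16, adjusted p = 0.0659). For Sqle it was 0.87 ± 0.15 log2 higher (95% interval 0.52 to 1.23, adjusted p = 0.0964). Neither passed the threshold. Over the 15 cholesterol genes the median was 0.40 log2, with 14 positive, and over the 12 fatty acid genes 0.10, with 8 positive, beside 0.037 over all genes. The synthesis gene Acss2 stood at 0.98 ± 0.29 log2 and the desaturases Fads3 at -0.69 ± 0.21, Fads1 at -0.59 ± 0.18 and Scd1 at -0.54 ± 0.23. This difference uses the same groups as the comparisons around it. Markers of other cell types moved with it: 6 of 6 fibroblast markers were lower (median -2.59 log2), 8 of 8 endothelial markers lower (-1.53), 6 of 7 macrophage markers lower (-0.41) and 8 of 9 keratinocyte markers higher (0.47). Their part was not tested.

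shCD36 over PLKO was also read on each diet. On palmitate no member was called, where 48 genes were (0.374%), with 11 members and 2359 genes at an unadjusted p under 0.05 in limma. All arrays with duplicateCorrelation called 9 members, 8 higher and 1 lower, of 1627 genes (12.7% of all). The cholesterol genes had a median of 0.25 log2, with 13 of 15 positive. Within SCC25 15 of 15 were positive, with a median of 0.27 log2, and within the second VDH15 experiment 10 of 15, with a median of 0.086 (13 of 15 and 0.21 without the array that stood apart). Fdft1 differed by 0.56 ± 0.08 log2 (n = 2, adjusted p = 0.0642). Acss2 differed by 1.02 ± 0.22 log2 (adjusted p = 0.0951), Sqle by 0.52 ± 0.11 (adjusted p = 0.0962), Me1 by 1.08 ± 0.31 (adjusted p = 0.156) and Fads1 by -0.50 ± 0.13 (adjusted p = 0.129). Without the first VDH15 experiment Fdft1 and Me1 passed. In the second VDH15 experiment Me1 differed by 1.44 log2, and by 0.72 without the array that stood apart. On this diet the fibroblast markers were lower in shCD36 tumours, by medians of -2.44 and -0.43 log2 in SCC25 and the second VDH15 experiment, as were the endothelial markers, by -0.91 and -1.62. Without the array that stood apart the fibroblast median of the second VDH15 experiment was -0.094. Of the keratinocyte markers 8 of 9 were higher (median 0.29). Their part was not tested.

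On the control diet no gene was called in limma (0%), with 435 genes and 4 members at an unadjusted p under 0.05, and duplicateCorrelation called 35 genes and 0 members. The cholesterol genes had a median of -0.17 log2, with 14 of 15 negative, and the fatty acid genes one of 0.040, with 10 of 12 positive. Fdft1 averaged 7.93 log2 in PLKO and 7.62 in shCD36 tumours of SCC25, and 8.03 and 7.62 in the second VDH15 experiment (-0.34 ± 0.08 log2, adjusted p = 0.991). Sqle averaged 7.81 and 7.35 in SCC25, and 7.70 and 7.36 in the second VDH15 experiment (-0.36 ± 0.11 log2). Srebf2 averaged 8.44 and 8.25, and 8.49 and 8.15 (-0.26 ± 0.07 log2). In SCC25 the cholesterol median of 15 genes was -0.21 log2 with 15 negative, and in the second VDH15 experiment -0.085 with 11 negative. The fatty acid genes went opposite ways, with a median of -0.086 log2 and 8 of 12 negative in SCC25 and 0.11 with 9 of 12 positive in the second VDH15 experiment. On this diet 6 of 6 fibroblast markers were higher in shCD36 tumours (median 1.12 log2), as were 8 of 8 endothelial (0.30) and 7 of 7 macrophage markers (0.18), and 8 of 9 keratinocyte markers were lower (-0.16). Their part was not tested.

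For the named genes not yet given in shCD36 tumours, the group averages on control and then palmitate were as follows in SCC25. Mvk read 8.32 and 8.24 log2, Mvd 7.73 and 8.01, Idi1 7.70 and 7.98, and Fdps 7.54 and 7.89. Dhcr7 read 9.43 and 9.49 log2 and Sc5d 6.51 and 6.62. Of the mevalonate genes, all but Mvk were thus higher on palmitate. In the second VDH15 experiment Mvk read 8.15 and 8.26 log2, Mvd 7.63 and 7.85, Idi1 7.64 and 7.93, and Fdps 7.63 and 7.67. There Dhcr7 read 9.54 and 9.60 log2 and Sc5d 6.63 and 6.92. All 6 genes were higher on palmitate in that experiment.

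None of the sensing genes of shCD36 tumours was called between the diets. In SCC25 Scap read 8.21 and 8.21 log2, Srebf2 8.25 and 8.39, Insig2 8.80 and 8.98, and Stard4 7.24 and 7.39. In the second VDH15 experiment Scap read 8.18 and 8.26 log2, Srebf2 8.15 and 8.40, Insig2 8.97 and 9.01, and Stard4 7.07 and 7.17. The differences of these 4 genes were all positive and lay between 0.0049 and 0.25 log2. Insig1 averaged 9.29 log2 on control and 9.51 on palmitate over both experiments, a difference of 0.22. Acaca read 9.28 and 9.23 log2 in SCC25 and 9.52 and 9.47 in the second VDH15 experiment, and Fasn 8.82 and 8.89, then 8.88 and 8.87.

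For the desaturases and elongases of shCD36 tumours, all 7 genes were lower on palmitate in the second VDH15 experiment and 2 of 7 in SCC25, none of them called. Fads1 read 9.30 and 9.33 log2 in SCC25 and 9.35 and 9.04 in the second VDH15 experiment. Scd1 read 7.53 and 7.25, then 7.69 and 7.48, and Fads2 9.32 and 9.46, then 9.52 and 9.46. Scd1, lower on palmitate in both, had a fitted difference of -0.24 ± 0.18 log2 that was not called. Elovl5 read 11.29 and 11.24 log2 in SCC25 and 11.41 and 11.20 in the second VDH15 experiment. Elovl6 read 7.28 and 7.59, then 7.63 and 7.48, and Elovl1 11.003 and 11.07, then 11.13 and 11.09.

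Oleate over control was measured in the first VDH15 experiment only. In limma no gene was called (0%), with 225 genes and 1 member, Fdft1, at an unadjusted p under 0.05, and duplicateCorrelation called 0 genes. The plain differences of the 15 cholesterol genes had a median of 0.012 log2, with 8 positive and 7 negative, beside -0.21 for palmitate in the same experiment against the same control arrays. Arrays were apart on the low side for 2 of the 15 (9.06% of all genes) and on the high side for none (6.54%). All 4 desaturases were positive on oleate, from 0.26 to 0.45 log2, with a median of 0.32, beside 0.62 on palmitate, or 0.29 on palmitate without the arrays that stood apart. The 5 synthesis genes had a median of -0.091 log2, beside -0.13.

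Fdft1 read 7.43, 7.58, 7.60 and 7.68 log2 on the oleate arrays, between the palmitate arrays and the control arrays of that experiment and overlapping neither. Its fitted difference from control was -0.39 ± 0.11 log2 (n = 1, adjusted p = 1.00), and the plain difference was -0.34. The fit estimates the control level from all 3 experiments, so the values differ. Dhcr7 read 9.69, 9.74, 9.74 and 9.78 log2 on oleate, Acss2 5.43, 5.68, 5.71 and 5.71 and Fads3 7.69, 7.71, 7.79 and 7.87. Dhcr7 and Acss2 overlapped their control arrays, and 3 of 4 oleate arrays of Fads3 lay above the highest control array, at 7.69 log2. Scd1 averaged 7.73 log2 on oleate, 7.88 on palmitate and 7.28 on control, and Fads2 9.66, 9.51 and 9.28, with oleate highest in Fads2. Without the arrays that stood apart Scd1 averaged 7.17 on palmitate, below control and oleate.

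In plain differences the other named genes on oleate were within 0.27 log2 of control, while the fit, with its control level from all experiments, gave -0.72 ± 0.42 log2 for Me1. Fads1 averaged 9.41 log2, Me1, whose arrays lay below those of control, 7.37, Acaca 9.24 and Fasn 8.90. Mvk averaged 8.10 log2, Mvd 7.87, Idi1 8.09 and Fdps 7.66, and Sqle 7.52 and Sc5d 6.93. Scap averaged 8.54 log2, Srebf2 8.39, Insig2 8.81 and Stard4 7.28. Elovl5 averaged 11.26 log2, Elovl6 7.45 and Elovl1 10.92. Idi1, Scap and Sc5d were thus near their control averages of 8.06, 8.60 and 6.90 log2, where palmitate gave 7.51, 7.83 and 6.14, or 7.75, 8.38 and 6.39 without the arrays that stood apart.

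Palmitate over oleate shares the palmitate and oleate groups with those comparisons. No member was called, where 5 genes were (0.039%), with 1592 genes and 5 members at an unadjusted p under 0.05 in limma, and duplicateCorrelation called 581 genes (4.53%) and 3 members, Dhcr7, Ebp and Sc5d. Dhcr7 differed by -0.46 ± 0.14 log2 (n = 1, adjusted p = 0.295), Sc5d by -0.67 ± 0.20 (adjusted p = 0.298) and Fads3 by 0.64 ± 0.21 (adjusted p = 0.328). Within the experiment 13 of 15 cholesterol genes were lower on palmitate than on oleate, with a median of -0.19 log2, and 5 had all palmitate arrays below all oleate arrays (20.5% of all genes). Without the arrays that stood apart 14 of 15 were lower, with a median of -0.30 log2. Endothelial markers were 0.68 log2 higher on oleate than on control in the median of 8, fibroblast markers -0.33 in the median of 6 and macrophage markers 0.012 in the median of 7. On palmitate over oleate within the experiment 6 of 6 fibroblast (median 0.95), 8 of 8 endothelial (0.62) and 7 of 7 macrophage markers (1.22) were higher and 8 of 9 keratinocyte markers lower (-0.46). Without the arrays that stood apart the endothelial median was 0.23 and the keratinocyte median -0.046. Their part was not tested.

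Other genes of the same pathways came from a list of 37, of which 23 were tested. Palmitate over control in PLKO tumours called 2 of them (8.70%), near the share of all genes given above. Elovl4, an elongase of very long chains, fell by 1.88 ± 0.26 log2 (adjusted p = 0.0192), and Hacd1, a dehydratase of the elongation cycle, rose by 0.94 ± 0.19 log2 (adjusted p = 0.0363). Of the 23, 14 had an unadjusted p under 0.05, against 26.8% of all genes, and their median was -0.092 log2. In the other 6 comparisons none of the 23 was called in limma.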

How the data were processed

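The deposited values were log2 intensities of 45141 Affymetrix probe sets on 36 arrays. Per the submitters' processing notes the authors used RMA and affy, with versions not given in the sources used here. The deposited log2 values also held no difference between labelled batches once diet and shRNA were in a model, for 100% of probe sets, so they had been adjusted for batch with the groups kept, which can make errors look smaller than they are. The platform annotation gave 1 gene to 28898 probe sets, several to 551 and none to 15692. Genes in the lowest 25% by mean level (under 5.19 log2) were left out.

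Arrays were averaged per group, and the 11 averages were fitted in limma 3.58.1 (R 4.3.3) with condition and experiment as terms, 4 residual and 2.70 prior degrees of freedom, and Benjamini-Hochberg adjustment over 12823 genes. The biological replicate label names the line and a run of it, which was taken as the experiment and the pairing of the groups, and then a number that differs between the groups of an experiment and pairs nothing. Called means an adjusted p under 0.05. The test was checked on simulated data. P-values measure the spread between experiments, 2 of which used VDH15. Oleate was measured in the first VDH15 experiment only, so its group adds nothing to that spread. The errors and p-values of the oleate comparisons come from the spread of the other conditions and from the prior. They do not measure how an oleate difference varies between experiments. Precision is set by how few arrays and experiments there are.

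The members and lists were chosen with earlier results of these data known. Called members, and up to 4 per role with the smallest unadjusted p, were named with their values. Alternatives covered the unit of the fit, the experiment term, the groups fitted, probe sets, filter, scaling, moderation, scan batch, the 3 arrays that stood apart and each experiment left out. Promoter windows came from RefSeq (GRCm38.p6).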

Additional observations from a re-analysis of the deposited data

Results flagged for a closer look

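Within groups of 4 arrays, 99 tests of the gap between an extreme array and its nearest neighbour over the range of the group gave 4 ratios above Dixon's critical value at the 95% level, where chance gives about 1 in 20. Lss on array 4 of the palmitate group of the first VDH15 experiment was lowest, at 5.15 log2 against 5.31 for the next (ratio 0.874). On oleate, Hsd17b7 on array 4 was highest, at 8.06 against 7.95 (0.853), Acss2 on array 3 lowest, at 5.43 against 5.68 (0.900), and Elovl1 on array 2 lowest, at 10.84 against 10.94 (0.881).

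Palmitate over control in PLKO tumours took opposite directions between experiments, with arrays of the groups apart in each, for 2 genes. Lss, the lanosterol synthase, differed by -0.35 log2 in SCC25 and 0.56 in the second VDH15 experiment. Its mean level of 5.26 log2 lay just above the filter. Acly, the ATP citrate lyase, differed by 0.42 log2 in the first VDH15 experiment and -0.28 in SCC25. The difference between the experiments was not tested.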

How the results depend on the processing

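For palmitate over control in PLKO tumours, 4 members were called. This became 13 (of 3052 genes) with all arrays and duplicateCorrelation (consensus correlation 0.295), 12 (of 3001) with no replicate block, that is without the experiment term, 0 (of 34) with the groups of the contrast alone, 2 with no filter and 0 to 2 (of 0 to 224 genes) leaving out an experiment. For shCD36 over PLKO on palmitate, 0 members and 48 genes became 9 (of 1627) with duplicateCorrelation, 8 (of 1722) with no replicate block and 0 to 2 (of 0 to 115 genes) leaving out an experiment, with 6 genes without the 3 arrays that stood apart and 0 with the groups alone. For the difference of palmitate effects 0 members became 5 (of 1052 genes) with duplicateCorrelation and 4 (of 699) with no replicate block, and for palmitate over oleate 0 became 3 (of 581) and 3 (of 869).

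Signs of some members turned in palmitate over control: leaving out an experiment gave -0.35 to 0.021 log2 for Idi1, -0.39 to 0.020 for Fdps and -0.066 to 0.22 for Fads2, including -0.055 without SCC25, and Fads2 was -0.024 without the 3 arrays that stood apart. The cause was not tested. The groups-alone fit and the fit without the first VDH15 experiment could not be made for the oleate comparisons. With 1 group per condition and experiment, and 1 experiment for oleate, a member that was not called is not shown to be unaffected. Where signal is near the filter, as for Lss and Acss2, differences are less sure. Over these alternatives the cholesterol median for palmitate over control moved in shCD36 tumours, from 0.19 to 0.14 log2 with the mean of all probe sets and to 0.14 without the second VDH15 experiment. The fatty acid median there went from 0.019 to -0.053 with the mean of all probe sets and -0.081 without SCC25, that of shCD36 over PLKO from 0.040 to 0.20 without SCC25 on control and from 0.081 to -0.026 without the second VDH15 experiment on palmitate, and that of the difference of palmitate effects from 0.10 to between 0.042 and 0.21. For oleate over control the fitted medians, 0.043 and 0.0029, turned to -0.031 and -0.052 with the mean of all probe sets, and the former to -0.047 without the second VDH15 experiment.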
